A study of Mus musculus with 10 samples.

Results

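MYC is a transcription factor that drives cell growth, and the building of ribosomes is among the processes it promotes. The 50 genes described here are 7 genes of the MYC network and 43 genes whose products build ribosomes, out of 54838 genes quantified in mouse intestinal crypts. They were listed by name under their known roles, with no threshold on measured values, but with earlier results of these data known. All 50 passed the filter on low counts that left 14719 genes for testing. In crypts of mice with epithelial deletion of Arid3a (cKO), 37 of the 43 ribosome biogenesis genes were lower than in wild-type (WT) crypts. Max, Mxd1 and Mxi1 of the MYC network were higher. Among all genes tested, 12.7% were lower and 15.6% higher. The decrease depended in size on the WT animals that were included. Without 3 of them, left out after the libraries had been seen, 3 of these genes were still lower (0.965% of all genes). Only Mxi1 was then still higher (3.46% of all genes), in a fit that held fewer animals.

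Jejunal crypts of 5 WT mice and of 5 Arid3a cKO mice gave 1 library of polyadenylated RNA each. The Arid3a cKO animals carried floxed Arid3a alleles and a Villin-driven, tamoxifen-inducible Cre recombinase (VillinCre-ERT2+/−; Arid3a fl/fl), which acts in the intestinal epithelium and not in stromal or blood cells. Animals of both genotypes received tamoxifen, and crypts were taken 1 month after its administration, after the villi had been scraped away. The labels call the control animals WT and give neither their alleles nor the age of any animal. The animal identifiers fell into separate series for the genotypes, with no shared stem, so colony or litter cannot be told apart from genotype.

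Ribosomes are made in the nucleolus. RNA polymerase I transcribes the precursor of the ribosomal RNAs, small nucleolar ribonucleoproteins (snoRNPs) modify it, and a long series of assembly factors cuts, folds and exports the small and the large subunit. MYC acts as a dimer with MAX, and proteins of the MXD family compete for MAX and repress the same kind of promoter. In the crypt, stem and transit amplifying cells divide rapidly and maintain high MYC and ribosome production, and both decline as cells move up and become absorptive enterocytes.

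The libraries held between 27050455 and 31053622 counts, and every member had at least 93 counts in every library. Arid3a itself was lower in cKO crypts (log2 fold change −1.84, standard error (SE) 0.32, adjusted p = 0.00204 by edgeR), with 2.42 ± 0.397 normalized CPM (SD, n = 5) in WT libraries against 0.673 ± 0.350 CPM (SD, n = 5) in those of cKO animals. Adjusted p-values were obtained with the quasi-likelihood test of edgeR and the Benjamini-Hochberg method over all 14719 genes, and a gene is said to be higher or lower where this value is under 0.05. CPM are counts per 1000000 normalized counts of a library and serve to compare 1 gene between animals, whereas TPM, which also corrects for transcript length, serves to compare genes. Markers of crypt cells were abundant in every library, with summed levels of 7 Paneth cell genes between 26070 and 66140 TPM and of 6 stem cell genes between 1846 and 4544 TPM. When libraries were grouped by the 1000 most variable genes, WT replicates 3, 4 and 5 fell on a branch of their own and WT replicates 1 and 2 joined the 5 cKO libraries. Several results are therefore also given without those 3 animals.

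Of the 50 members, 38 were lower and 3 were higher in cKO crypts, and 9 did not pass the test. Of all genes tested, 12.7% were lower, 15.6% were higher and 28.3% passed in either direction. All 43 ribosome biogenesis genes had a negative log2 fold change, against 54.1% of all genes, and their median was −0.41, against −0.03 for all genes. The 5 cKO libraries lay below the 5 WT libraries without overlap in 29 of the 43, whereas 7.63% of all genes showed this pattern. The decreases were modest in size. Among the 37 genes that fell, they ran from 13.0% for Ubtf (a log2 fold change of −0.20) to 37.8% for Rrp1b (−0.68), and 5% of all genes lay below −0.71. In these bulk libraries, fewer cells that make ribosomes and less of these RNAs per cell cannot be told apart. Absorptive enterocyte markers were higher in the same cKO libraries (12 of 12 markers, and 7 of 12 without cKO replicate 5, summed level 1849 to 8186 TPM in WT and 8588 to 16630 TPM in cKO crypts), and their part in the lower members was not tested. The members are spread over 19 chromosomes, with at most 5 on any one.

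**Figure D1:**
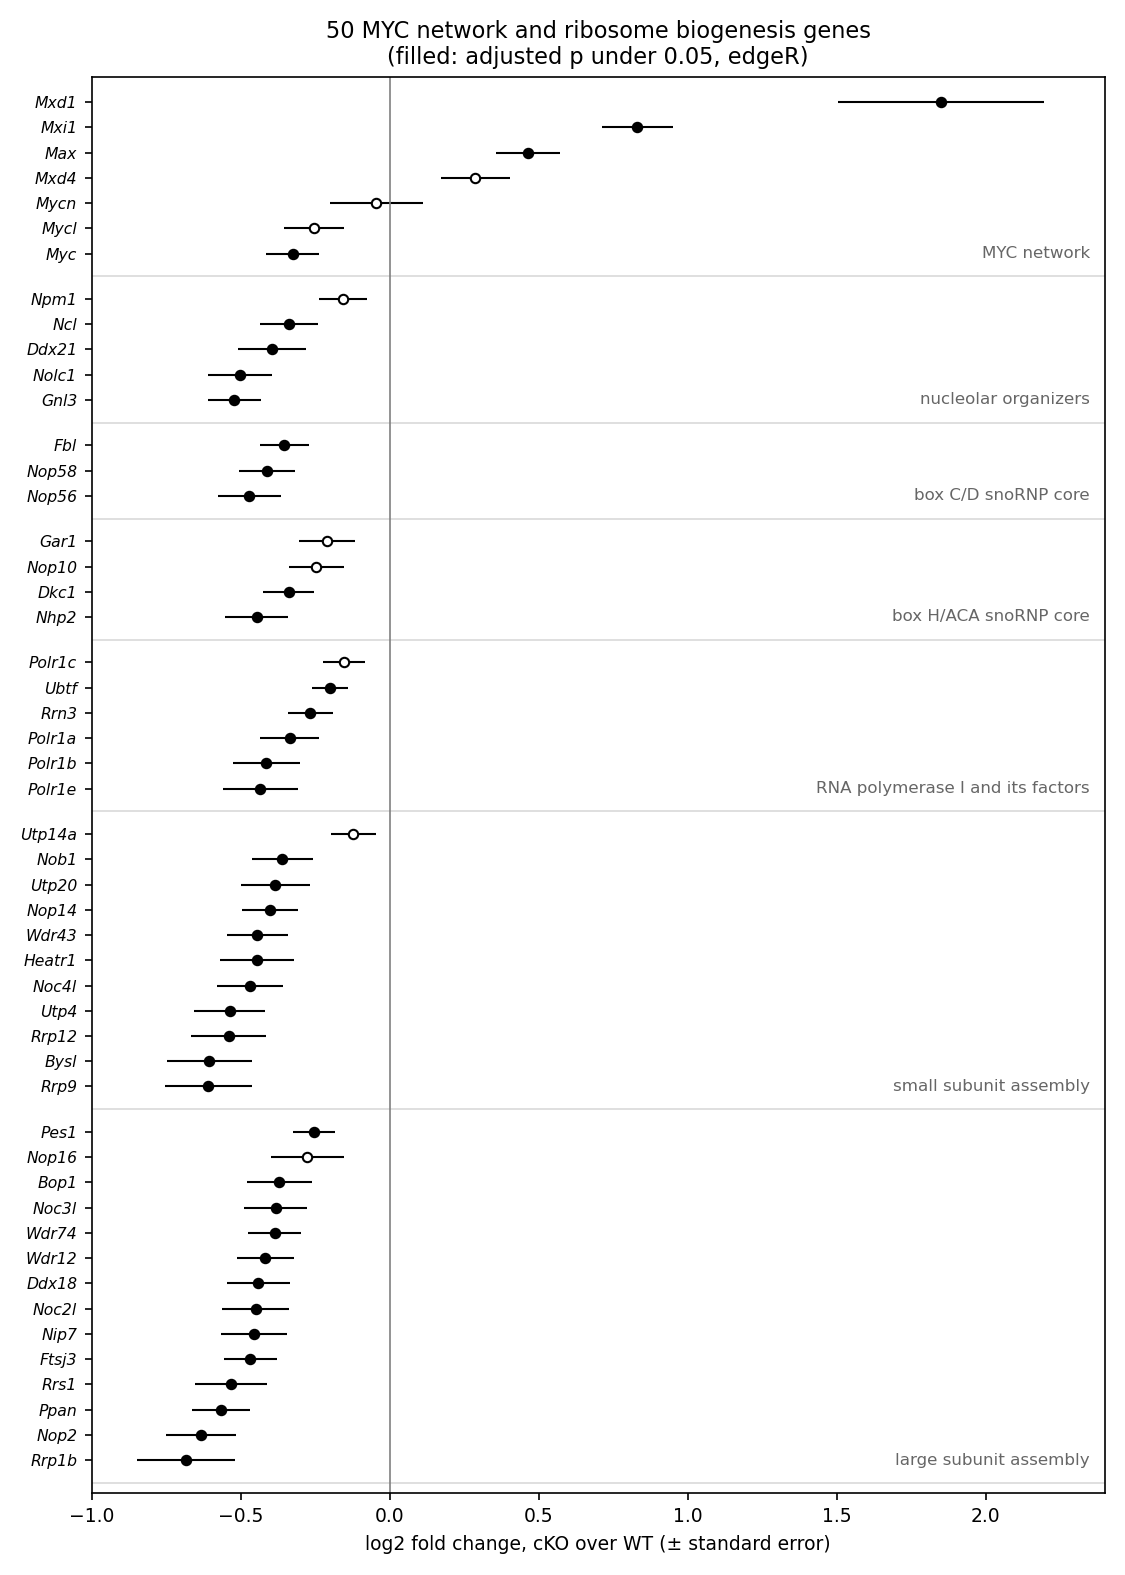
Log2 fold change of Arid3a cKO over WT crypts (x axis, bars show the standard error) for each of the 50 genes, grouped by role, with filled points for an adjusted p under 0.05. The ribosome biogenesis genes all lie to the left of 0, between −0.68 and −0.12, while Mxd1, Mxi1 and Max lie to the right.

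The decrease depended in size on the WT animals that were included. Leaving out any 1 of the 10 libraries left 33 to 40 members lower (7.59% to 14.1% of all genes), and the median of the 43 ribosome biogenesis genes between −0.47 and −0.33. Without WT replicates 3 and 4, which had the lowest summed enterocyte markers, 24 members were lower (4.45% of all genes tested in that fit, in which 9.77% were higher) and the median was −0.33. Without WT replicates 3, 4 and 5 together, 3 members were lower (0.965% of all genes) and the median was −0.20. The 3 members were Nop2, Ppan and Gnl3, and Mxi1 was then the 1 member that was higher (3.46% of all genes). The calls of all other members were lost in that fit. It held fewer WT animals, and those left out were picked after the libraries had been seen. The lost calls therefore cannot show how far the decrease rests on those animals. The sign of the log2 fold change was kept in every one of these fits by all members except Mycn.

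Myc itself fell in cKO crypts. Its level was 105, 94.0, 115, 133 and 126 CPM in WT replicates 1 to 5 and 97.7, 87.2, 89.5, 93.0 and 89.9 CPM in cKO replicates 1 to 5. The groups met only at WT replicate 2, which lay below cKO replicate 1 and above the other 4 cKO animals. Its log2 fold change came to −0.33 (SE 0.09, adjusted p = 0.0177 by edgeR). Leaving out single animals kept this call, with values between −0.39 and −0.26, but it was lost without WT replicates 3 and 4 (−0.24, adjusted p = 0.103) and without WT replicates 3, 4 and 5 (−0.12, adjusted p = 0.371).

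The other MYC family genes did not pass the test. Mycl, a MYC paralogue, lay between 52.3 and 69.0 CPM in WT and between 43.6 and 60.1 CPM in cKO crypts, and its log2 fold change of −0.25 did not pass (SE 0.10, adjusted p = 0.0774 by edgeR). It passed on the TPM scale with limma (−0.47, adjusted p = 0.0196). Mycn, a further paralogue and the least abundant of the 50 members at 2.22 TPM in WT and 1.96 TPM in cKO crypts, changed by −0.04 on the log2 scale (adjusted p = 0.851 by edgeR), and its sign turned without WT replicate 1 or without cKO replicate 1.

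Mxd1, which encodes a MAX partner that opposes MYC and is known for its expression in differentiating cells, showed the largest change of the 50 members. WT replicates 1 to 5 had 52.6, 53.3, 26.8, 19.0 and 42.0 CPM, and cKO replicates 1 to 5 had 140.5, 103, 82.9, 198 and 174 CPM. Every cKO animal lay above every WT animal, and WT replicates 3 and 4 were the lowest of all. On the log2 scale it changed by 1.85 (SE 0.35, adjusted p = 0.00552 by edgeR). It stayed between 1.68 and 2.0 when single animals were left out, and was 1.40 without WT replicates 3, 4 and 5, where it no longer passed (adjusted p = 0.0824).

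Mxi1, a second repressor of this family, was 28.3, 35.8, 26.8, 21.2 and 27.4 CPM in WT and 52.2, 49.3, 42.2, 53.9 and 50.4 CPM in cKO replicates 1 to 5. The groups did not overlap, a pattern that 12.0% of all genes showed in this direction. Its log2 fold change was 0.83 (SE 0.12, adjusted p = 9.91e-04 by edgeR), the smallest adjusted p among the members, and it passed in every fit that was run, including the one without WT replicates 3, 4 and 5 (0.63, adjusted p = 0.0294). A near-identical gene, Gm10197, held 3.32% as many counts as Mxi1, so a small part of these counts could have been divided between them.

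Max, the shared partner of MYC and MXD proteins, ranged from 68.6 to 91.8 CPM in WT and from 89.9 to 128 CPM in cKO crypts. Only cKO replicate 3 lay within the WT range. Max rose by 0.46 on the log2 scale (SE 0.11, adjusted p = 0.00826 by edgeR), although the difference did not pass on the TPM scale (0.39, adjusted p = 0.0544 by limma) or without WT replicates 3 and 4 (0.38, adjusted p = 0.0543). Mxd4 is another member of the repressor family. It had 31.1 ± 5.11 CPM (SD, n = 5) in WT crypts against 38 ± 3.63 CPM (SD, n = 5) in cKO crypts. The groups overlapped, and the log2 fold change of Mxd4 was 0.29 (adjusted p = 0.0786 by edgeR).

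**Figure D2:**
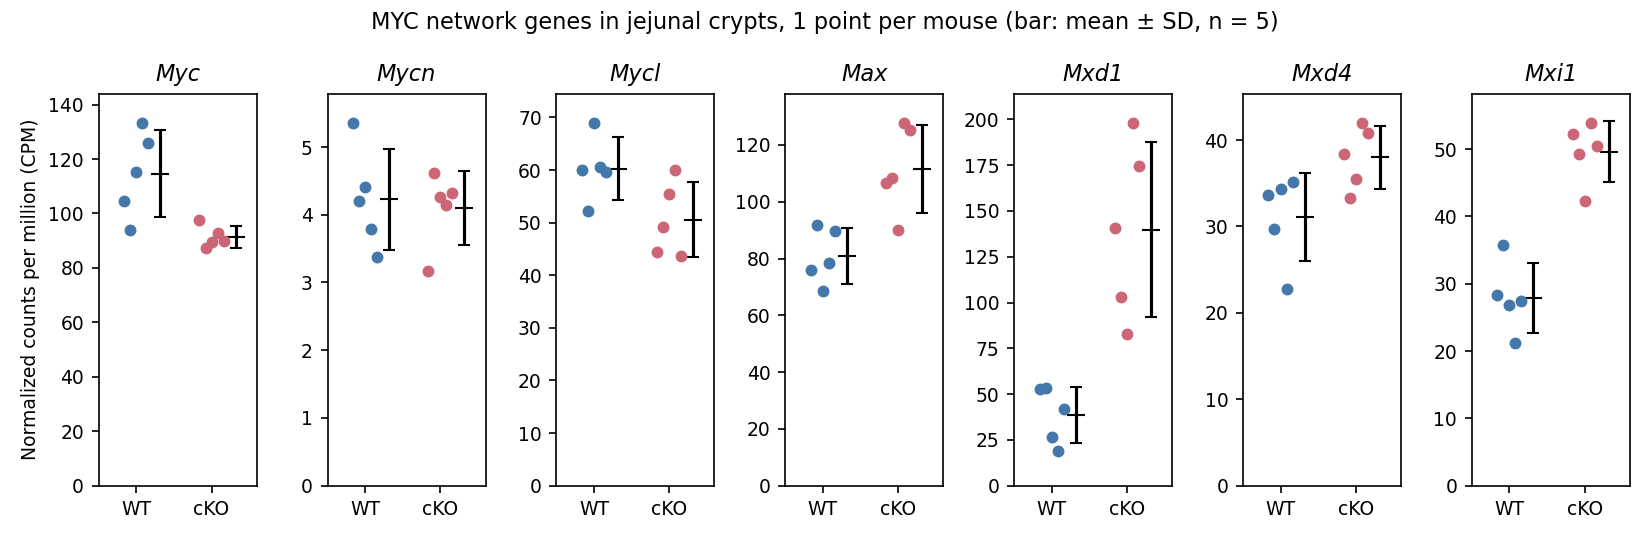
Normalized CPM of the 7 MYC network genes (y axes start at 0 and differ between panels) with 1 point for each of the 5 WT and 5 cKO mice in replicate order, and the mean ± SD beside them. The groups are apart for Mxd1 and Mxi1, and they overlap for Myc, Max, Mycn, Mycl and Mxd4.

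On the TPM scale, the order of these genes differed between the genotypes. In WT crypts means were 73.5 TPM for Myc, 72.0 for Max, 27.5 for Mycl, 12.15 for Mxd4, 11.5 for Mxd1 and 7.40 for Mxi1. Max lay above Myc in WT replicates 1, 2 and 5 and below it in WT replicates 3 and 4. In cKO crypts means were 54.1 TPM for Myc, 96.3 for Max, 38.6 for Mxd1, 19.7 for Mycl, 13.25 for Mxd4 and 12.4 for Mxi1. Mxd1 thus stood above Mycl and Mxd4 in cKO crypts only. The ratio of Myc to Mxd1 transcripts, both in TPM, was 4.20, 3.79, 8.64, 15.3 and 6.45 in WT replicates 1 to 5 and 1.54, 1.83, 2.38, 0.996 and 1.10 in cKO replicates 1 to 5. All WT ratios lay above all cKO ratios, and the WT ratios spread the more widely. These ratios are built from the Myc and Mxd1 levels already described and add no separate evidence. Of 6 further genes of the network (Mxd3, Mnt, Mga, Mlx, Mlxip and Mlxipl), 0 passed the test by edgeR and 1 was higher at an unadjusted p under 0.05, while DESeq2 called 0 and limma on TPM called 2 lower.

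The MYC-MAX dimer binds the E-box, whose 6 letters CACGTG read the same on both strands. RefSeq gave promoter windows, from 250 bases before to 50 bases after an annotated start site on GRCm38.p6, for 44 of the 50 members. Bop1, Fbl, Myc, Npm1, Rrp12 and Rrs1 had no window and were not searched. The motif stood in a window of 8 of these 44 genes (18.2%), of 16 of 76 other ribosome biogenesis genes (21.1%), of 11.5% of the genes tested, and in 7.15% of all 32851 promoter windows. The genes are Max and Mxd4 of the MYC network, and Nop2, Pes1, Rrn3, Utp20, Utp4 and Wdr43 of the ribosome biogenesis genes, 6 of 38 (15.8%). The sequences are shown because these are the members with the letters a MYC dimer can read inside the window. Binding was not measured. The sequences are written 5′ to 3′ on the gene's strand with the motif in capitals. Coordinates are those of the stretch printed.
Max, chr12:76962246-76962275 on the minus strand: ctaccccggcgcggtgagcccggtCACGTG
Mxd4, chr5:34187899-34187954 on the minus strand: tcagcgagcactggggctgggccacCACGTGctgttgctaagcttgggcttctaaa
Rrn3, chr16:13780459-13780514 on the plus strand: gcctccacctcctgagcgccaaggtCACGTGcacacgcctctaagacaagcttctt
Rrn3, chr16:13780626-13780681 on the plus strand: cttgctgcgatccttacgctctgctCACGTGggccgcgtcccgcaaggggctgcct
Utp20, chr10:88826765-88826789 on the minus strand: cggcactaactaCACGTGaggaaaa
Utp4, chr8:106893631-106893660 on the plus strand: ggcgctgtcgagtgcgcaagcgcgCACGTG
Wdr43, chr17:71616208-71616237 on the plus strand: ccggtgcgcctgcgcccgggcgaaCACGTG
Pes1, chr11:3963953-3963982 on the plus strand: ggtccttcagggccctaggcagggCACGTG
The 250 bases before the start site of Nop2, which are 67.6% G or C, are shown whole because Nop2 was one of the members that stayed lower in every fit.
Nop2, chr6:125131633-125131882 on the plus strand: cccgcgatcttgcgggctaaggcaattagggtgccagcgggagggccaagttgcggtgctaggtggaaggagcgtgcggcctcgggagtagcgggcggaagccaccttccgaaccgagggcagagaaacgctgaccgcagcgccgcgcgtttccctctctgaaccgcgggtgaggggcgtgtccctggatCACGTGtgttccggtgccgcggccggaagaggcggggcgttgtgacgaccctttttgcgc
With the first transcribed base as position 1, the motif began at position −60 in Nop2, at −48 and −215 in Rrn3, at −3 in Max and at −219 in Mxd4. It began after the start site in Pes1 (position 3), Utp4 (16), Wdr43 (18) and Utp20 (38). These genes went in both directions: Max rose, Mxd4 did not pass the test, and the 6 ribosome biogenesis genes that fell changed by −0.25 for Pes1 to −0.63 for Nop2 on the log2 scale.

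Nucleolar organizers, abundant proteins that hold the nucleolus together and chaperone its particles, fell in 4 of 5 cases, with a median log2 fold change of −0.40. Nucleolin (Ncl), which binds the ribosomal RNA precursor, had 1173, 1168, 1318, 1562 and 1246 CPM in WT replicates 1 to 5 and 909, 1121, 1103, 959 and 1024 CPM in cKO replicates 1 to 5. The highest cKO animal lay just under the lowest WT animal, and WT replicate 4 was the highest of all. The change between genotypes was −0.34 (SE 0.10, adjusted p = 0.0206 by edgeR), which did not pass without cKO replicate 1.

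Gnl3 encodes nucleostemin, a nucleolar GTPase named for its abundance in stem cells. It was 99.99, 105, 108, 138 and 122 CPM in WT and 78.3, 85.5, 83.3, 72.6 and 79.7 CPM in cKO replicates 1 to 5. All cKO animals were well below all WT animals, and Gnl3 had the smallest adjusted p of the ribosome biogenesis genes (log2 fold change −0.52, SE 0.09, adjusted p = 0.0020 by edgeR). Nolc1, a chaperone of snoRNPs, fell by 0.50 and Ddx21, a nucleolar RNA helicase, fell by 0.40 on the log2 scale, a call that was lost without cKO replicate 4.

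Nucleophosmin (Npm1), a nucleolar histone and ribosome chaperone, was the most abundant member at 1021 TPM in WT and 824 TPM in cKO crypts, and it did not pass the test. It had 745, 754, 814, 875 and 853 CPM in WT and 626, 788, 754, 689 and 765 CPM in cKO replicates 1 to 5. The groups overlapped, and the log2 fold change was −0.16 (SE 0.08, adjusted p = 0.165 by edgeR). Npm1 has 4 near-identical copies in the annotation, whose counts together were 1.86% of its own.

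The 3 proteins of the box C/D snoRNP core, which place methyl groups on ribosomal RNA, all fell, with a median of −0.41. Nop56 was 172, 197, 191, 259 and 243 CPM in WT and 152, 160.4, 162, 141 and 151 CPM in cKO replicates 1 to 5. No animal crossed over between the groups, and WT replicates 4 and 5 were the highest. Nop56, a scaffold of the particle, changed by −0.47 (SE 0.10, adjusted p = 0.00721 by edgeR) and its partner Nop58 by −0.41. Fbl, the methyltransferase fibrillarin, changed by −0.35 (adjusted p = 0.00849 by edgeR), and only the highest cKO animal, at 134 CPM, passed the lowest WT animal, at 128 CPM. Pseudogene copies held 3.32% as many counts as Nop56 and 3.26% as many as Fbl. A transcript annotated to Tulp4 is also 99.6% identical to Fbl, and the counts of the whole Tulp4 gene were 62.5% of those of Fbl, so how the reads of Fbl were divided is uncertain.

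Of the 4 proteins of the box H/ACA snoRNP core, which convert uridines of ribosomal RNA to pseudouridine, 2 fell, and the median was −0.29. Dkc1, the pseudouridine synthase dyskerin, was between 107 and 151 CPM in WT and between 93.8 and 103 CPM in cKO crypts, a change of −0.34 on the log2 scale (SE 0.08, adjusted p = 0.0119 by edgeR). Nhp2 changed by −0.45 (adjusted p = 0.00941 by edgeR). Neither gene overlapped between the genotypes. Gar1 (−0.21, adjusted p = 0.116 by edgeR) and Nop10 (−0.25, adjusted p = 0.0622 by edgeR) had overlapping groups and did not pass.

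RNA polymerase I genes and their initiation factors were lower in 5 of 6 cases, and their median of −0.30 was among the smaller ones. Polr1b, a catalytic subunit, was 64.8, 66.3, 78.8, 104 and 78.5 CPM in WT and 58.4, 55.3, 59.8, 61.1 and 59.9 CPM in cKO replicates 1 to 5. The cKO animals were close together and all below WT replicate 1, while WT replicate 4 stood far above. The log2 fold change of Polr1b was −0.41 (SE 0.11, adjusted p = 0.0173 by edgeR). Polr1e, a subunit that aids initiation and elongation, changed by −0.43 and Polr1a, the other catalytic subunit, by −0.34. Rrn3, which recruits the polymerase to the ribosomal DNA promoter, changed by −0.27, and its promoter carried both E-boxes printed above.

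Several calls in this group were lost when a single animal was left out. Ubtf, the upstream binding factor of ribosomal DNA, lay between 179 and 204 CPM in WT and between 152 and 173 CPM in cKO crypts, with no overlap and a log2 fold change of −0.20 (SE 0.06, adjusted p = 0.0276 by edgeR). Its call was lost when WT replicate 3 or 4, or cKO replicate 1, 4 or 5, was left out, and that of Polr1a when WT replicate 3 or 4, or cKO replicate 1 or 3, was left out. Polr1a did not pass on TPM either (−0.30, adjusted p = 0.105 by limma), nor did Ubtf with no filter on low counts. The call of Polr1e was lost without WT replicate 5 or cKO replicate 4 and that of Rrn3 without cKO replicate 4. Polr1c, a subunit shared with RNA polymerase III, did not pass (−0.15, adjusted p = 0.126 by edgeR).

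Small subunit assembly factors were lower in 10 of 11 cases, with a median of −0.45. Rrp9, a protein of the U3 snoRNP that guides the early cuts of the precursor, was 30.2, 37.8, 33.8, 47.6 and 54.3 CPM in WT and 27.7, 26.9, 29.1, 22.8 and 27.1 CPM in cKO replicates 1 to 5. WT replicate 1 was just above the highest cKO animal, and WT replicates 4 and 5 were the highest. This gave a log2 fold change of −0.61 (SE 0.15, adjusted p = 0.0105 by edgeR).

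Bysl, a factor of pre-40S particles, was 32.1, 39.98, 38.1, 56.0 and 52.5 CPM in WT and 31.4, 28.1, 31.9, 24.9 and 27.4 CPM in cKO replicates 1 to 5. The groups were apart by a narrow margin at WT replicate 1. The log2 fold change of Bysl was −0.61 (SE 0.14, adjusted p = 0.00941 by edgeR). Rrp12, needed for export of the subunit, changed by −0.54. Of the proteins that join the precursor early, Utp4 changed by −0.54, Heatr1 by −0.45 and Wdr43 by −0.44.

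Nop14 and Noc4l, partners in the small subunit processome, changed by −0.40 and −0.47, and Utp20, a large scaffold of that particle, changed by −0.38. Nob1, the nuclease that makes the final cut of 18S ribosomal RNA, changed by −0.36, and its call was lost without WT replicate 4. The call of Utp20 was lost without WT replicate 3 or 4 or without cKO replicate 1 or 5. Utp14a, a cofactor of a processome helicase, had the smallest difference of the 43 genes (−0.12, adjusted p = 0.247 by edgeR), with 51.3 to 64.7 CPM in WT and 47.2 to 53.9 CPM in cKO crypts.

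Large subunit assembly factors were lower in 13 of 14 cases, also with a median of −0.45. Nop2, a methyltransferase of 28S ribosomal RNA, was 82.8, 94.0, 94.5, 132 and 122 CPM in WT and 73.3, 66.7, 71.6, 62.9 and 64.6 CPM in cKO replicates 1 to 5. The groups were clearly apart, and the cKO animals were closer to each other than the WT animals were. The estimated log2 fold change was −0.63 (SE 0.12, adjusted p = 0.00317 by edgeR), and −0.39 (adjusted p = 0.0380) without WT replicates 3, 4 and 5.

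Rrp1b, a nucleolar protein of pre-60S particles, had the largest decrease of the 50 members. It was 44.5, 48.4, 58.3, 90.9 and 63.7 CPM in WT and 39.1, 36.7, 41.4, 35.3 and 37.7 CPM in cKO replicates 1 to 5. WT replicate 4 was far above the others, and WT replicates 1 and 2 were only a little above the cKO animals. The log2 fold change of Rrp1b was −0.68 (SE 0.16, adjusted p = 0.0112 by edgeR), −0.46 (adjusted p = 0.0239) without WT replicates 3 and 4, and −0.29 without WT replicates 3, 4 and 5, where it no longer passed (adjusted p = 0.0742). In that last fit several members had larger decreases than Rrp1b, among them Ppan (−0.41), Nop2 (−0.39), Nhp2 (−0.38), Gnl3 (−0.37) and Rrp9 (−0.35).

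Ppan, a factor of early pre-60S particles, was 45.9, 54.6, 50.9, 65.9 and 62.7 CPM in WT and 38.1, 36.9, 40.5, 34.6 and 38.9 CPM in cKO replicates 1 to 5. No values overlapped, and the log2 fold change was −0.57 (SE 0.10, adjusted p = 0.00204 by edgeR). With Gnl3 and Nop2, Ppan was 1 of the 3 genes that stayed lower in every fit. Ftsj3, a methyltransferase of the same particles, changed by −0.47 (adjusted p = 0.00344 by edgeR).

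The 3 proteins of the PeBoW complex, which is required for maturation of 28S and 5.8S ribosomal RNA, each fell, Wdr12 by 0.42, Bop1 by 0.37 and Pes1 by 0.25 on the log2 scale. The call of Pes1 was lost without cKO replicate 4, and that of Bop1 without any one of WT replicates 4 and 5 and cKO replicates 4 and 5. The other large subunit factors that fell were Rrs1 (−0.53), which helps bring in 5S ribosomal RNA, Nip7 (−0.46), Noc2l (−0.45), the helicase Ddx18 (−0.44), Wdr74 (−0.39) and Noc3l (−0.38). Nop16, a nucleolar factor of the large subunit, did not pass (−0.28, SE 0.12, adjusted p = 0.110 by edgeR), with WT replicates 1 and 3 among the cKO animals.

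Animals of the same genotype differed from each other in a shared way. WT replicate 4 had the highest level of the 10 libraries in 33 of the 43 ribosome biogenesis genes, and WT replicate 1 the lowest WT level in 32 of them. Among cKO animals, replicate 4 had the lowest level of all 10 libraries in 33 genes. The spread within WT was the larger, with a median coefficient of variation of 16.6% in WT and 6.11% in cKO libraries. It was larger in WT for 97.7% of the 43 genes and for 68.4% of all genes, whose medians were 14.5% and 10.04%.

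**Figure D3:**
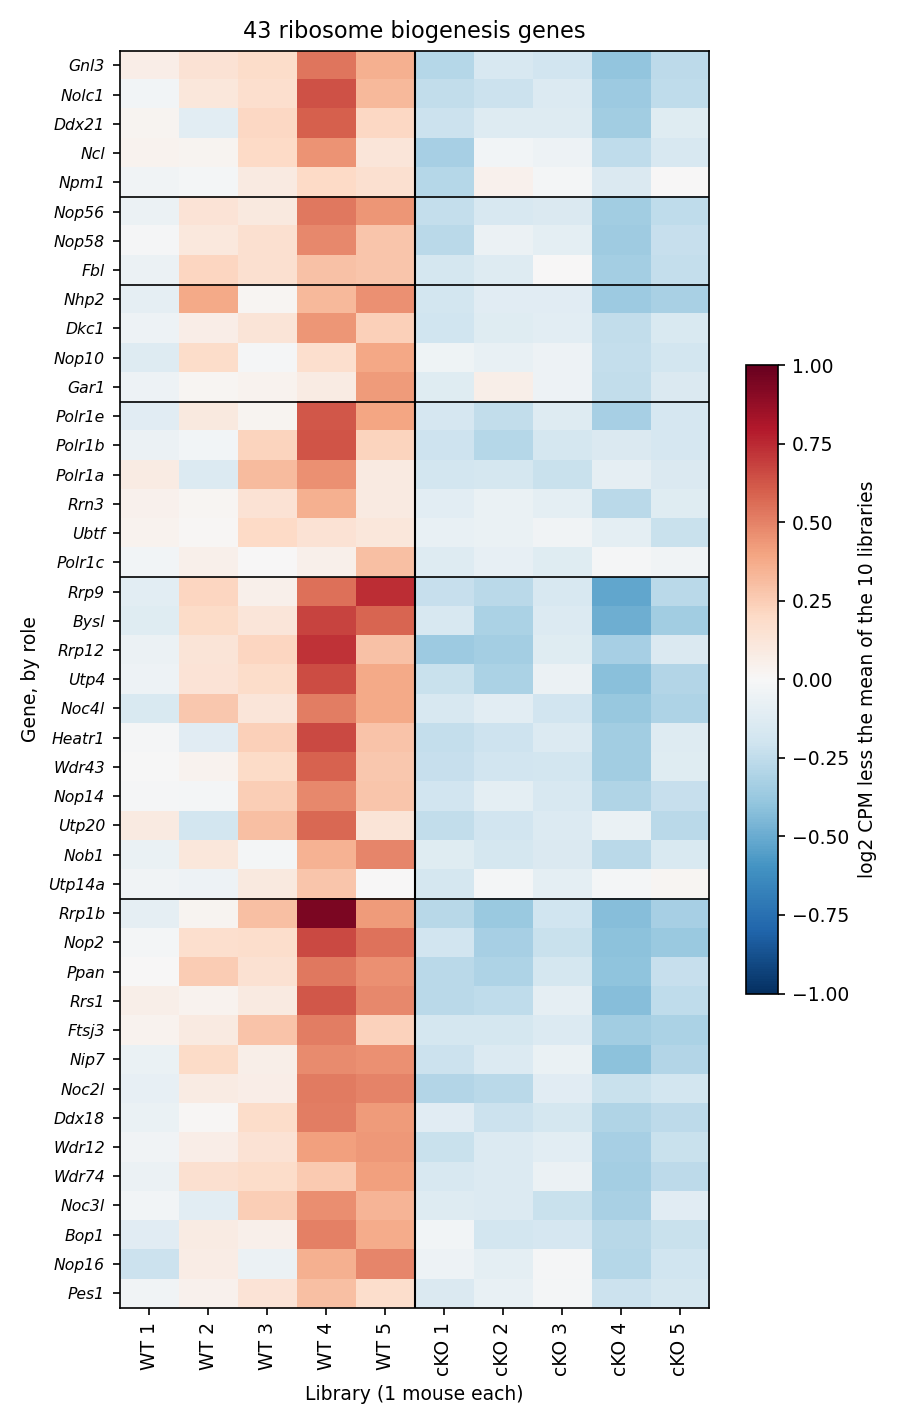
Level of each of the 43 ribosome biogenesis genes (rows, ordered by role and then by fold change) in each of the 10 libraries (columns), as log2 CPM less the mean of the 10 libraries. WT replicate 4 is the reddest column, WT replicate 1 is close to white, and the 5 cKO columns are blue in nearly every row.

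The summed level of the 43 genes was 3769, 3795, 4114, 5224 and 4191 TPM in WT replicates 1 to 5 and 2995, 3173, 3216, 3090 and 3057 TPM in cKO replicates 1 to 5. All cKO sums lay below all WT sums, in a narrow band, while the WT sums were uneven. This comparison is the sum of the single gene results above and adds no separate evidence.

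Other measures moved with this one. The 12 absorptive enterocyte markers were all higher in cKO crypts, by a median of 1.83 on the log2 scale, and their summed level was 5423, 8186, 2661, 1849 and 4099 TPM in WT and 12470, 11910, 8588, 16630 and 16130 TPM in cKO replicates 1 to 5. Without cKO replicate 5, 7 of the 12 passed, the calls of Apoa1, Apoa4, Fabp1, Fabp2 and Lct being lost, with no filter on low counts 7 passed as well, and without WT replicates 3, 4 and 5, 5 did. WT replicate 4 had both the highest ribosome biogenesis sum and the lowest enterocyte sum. WT replicate 2 and cKO replicate 3 were close in enterocyte markers, at 8186 and 8588 TPM, and had ribosome biogenesis sums of 3795 and 3216 TPM. These 2 animals were not alike in other markers. Their cycling cell sums were 1355 and 1046 TPM, their stem cell sums 2464 and 2129 TPM, and their Paneth sums 45150 and 35650 TPM. Of 12 genes of cycling cells, 7 were lower, with a median of −0.38 and summed levels of 1281 to 1561 TPM in WT and 893 to 1046 TPM in cKO crypts. Stem cell genes were lower in 4 of 6 cases and Paneth cell genes in 6 of 7, with Paneth sums of 45150 to 66140 TPM in WT and 26070 to 36240 TPM in cKO crypts. Of the stem cell genes, 1 was still lower when any one of WT replicates 3 and 4 and cKO replicates 1, 3 and 5 was left out, and all 4 calls were lost without WT replicates 3, 4 and 5, in which fit 1 Paneth cell gene and 3 of the 12 cycling cell genes were lower. The part of these cell types in the lower ribosome biogenesis genes was not tested.

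Of the markers of cells outside the epithelium, 6 T cell genes were the most abundant, summing to 89.7 to 332.9 TPM in WT and 133.9 to 350.9 TPM in cKO crypts, and 5 myeloid genes summed to 19.1 to 58.4 TPM in WT and 9.16 to 87.4 TPM in cKO crypts. B and plasma cell genes summed to 17.3 to 50.3 TPM in WT and 5.79 to 13.8 TPM in cKO crypts, with 1 of 5 lower, and stromal and endothelial genes to 16.5 to 61.1 TPM in WT and 12.1 to 74.6 TPM in cKO crypts, with 2 of 7 lower. The stromal and endothelial count was 1 to 4 when single animals were left out. It was 1 in 7 of these 10 fits and 4 without cKO replicate 4. The B and plasma cell count was 3 without cKO replicate 5. Both without WT replicates 3 and 4 and without 3, 4 and 5, 0 stromal and endothelial genes and 1 B and plasma cell gene were lower. By edgeR, 0 of 6 T cell and 5 myeloid genes passed, and 0 of 6 genes of the epithelial goblet cells, with 0 T cell, 1 myeloid and 2 goblet cell genes at an unadjusted p under 0.05. DESeq2 called 1 myeloid gene lower and 1 goblet cell gene higher, limma on TPM called 1 myeloid and 1 goblet cell gene lower, and both called 0 T cell genes. Of the remaining epithelial lists, 3 of 6 enteroendocrine and 4 of 6 tuft cell genes were higher. Enteroendocrine genes higher numbered 1 without WT replicate 3 or cKO replicate 4, and the 3 calls were lost on TPM. Tuft cell genes higher numbered 1 without cKO replicate 1 or 3, with no filter or on TPM. They numbered 2 when any 1 of WT replicates 3 and 4 and cKO replicates 2 and 4 was left out. Without WT replicates 3 and 4, 1 enteroendocrine and 0 tuft cell genes were higher. Without WT replicates 3, 4 and 5, 0 genes of either list were. Every marker was detected in at least 1 library. The part of these cells in the results on the members was not tested either.

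**Figure D4:**
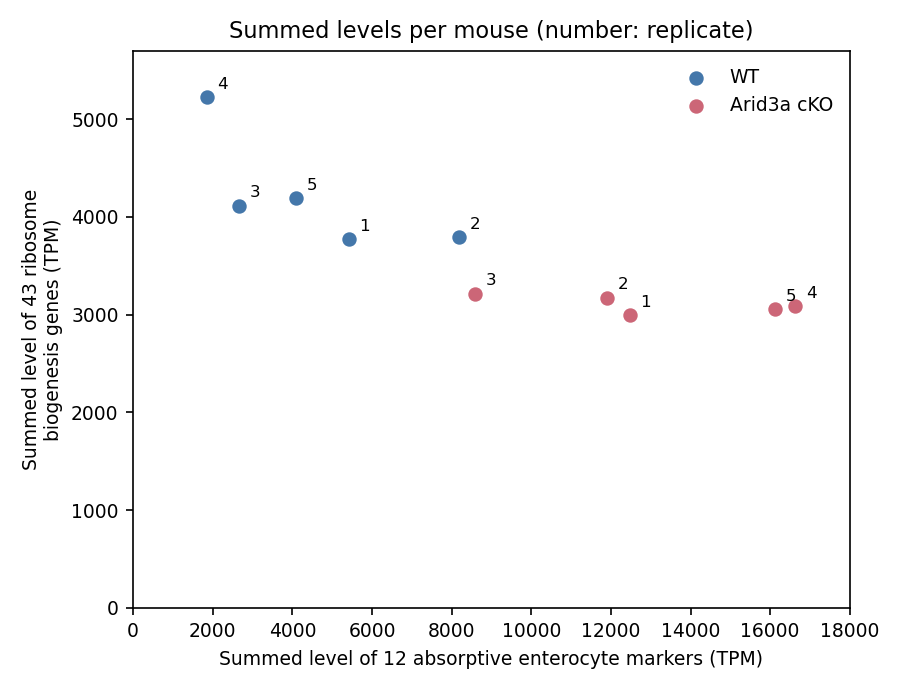
Summed level of the 43 ribosome biogenesis genes (y axis, TPM) against the summed level of 12 absorptive enterocyte markers (x axis, TPM), 1 point per mouse with its replicate number. WT points lie between 3769 and 5224 TPM on the y axis and cKO points between 2995 and 3216 TPM. On the x axis, WT points lie between 1849 and 8186 TPM and cKO points between 8588 and 16630 TPM.

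Other genes of the same processes were also examined. These lists were chosen with earlier results of these data known, so they are no independent check of the decrease in the 43. Of 96 further ribosome biogenesis genes, 59 were lower (61.5%) and 0 were higher in cKO crypts by edgeR. Of all genes tested, 12.7% were lower and 15.6% higher. None was higher at an unadjusted p under 0.05, by DESeq2 or by limma on TPM, 93 had a negative log2 fold change, and the median was −0.29. They comprised 26 of 40 small subunit factors (median −0.27), 24 of 40 large subunit factors (median −0.30), 6 of 7 snoRNP assembly factors (median −0.37) and 3 of 9 genes of RNA polymerase I (median −0.17). Fewer of the polymerase genes than of the assembly factors passed, and this difference between the lists was not tested. Without WT replicates 3 and 4, 23 of all 118 further pathway genes were lower (4.45% of all genes tested in that fit). Without WT replicates 3, 4 and 5, 1 was (0.965% of all genes).

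The 3 further genes with the smallest p were Ddx51, Cdk4 and Ddx27. Ddx51, a helicase of large subunit assembly that lies head to head with Noc4l on chromosome 5, was 28.7, 26.1, 31.1, 36.6 and 29.4 CPM in WT and 20.1, 21.8, 23.4, 22.4 and 20.4 CPM in cKO replicates 1 to 5. The groups were apart, and the log2 fold change was −0.49 (SE 0.09, adjusted p = 0.0031 by edgeR). Cdk4, a cyclin-dependent kinase gene regulated by MYC, changed by −0.33 (adjusted p = 0.00361 by edgeR) and Ddx27, a helicase of the large subunit, by −0.43 (adjusted p = 0.00469 by edgeR). Of the 16 other growth genes known to respond to MYC, 6 were lower and 0 were higher by edgeR, with a median of −0.26. The share lower was 37.5%, against 12.7% of all genes. At an unadjusted p under 0.05, or by DESeq2 or limma on TPM, 0 of the 16 were higher.

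**Figure D5:**
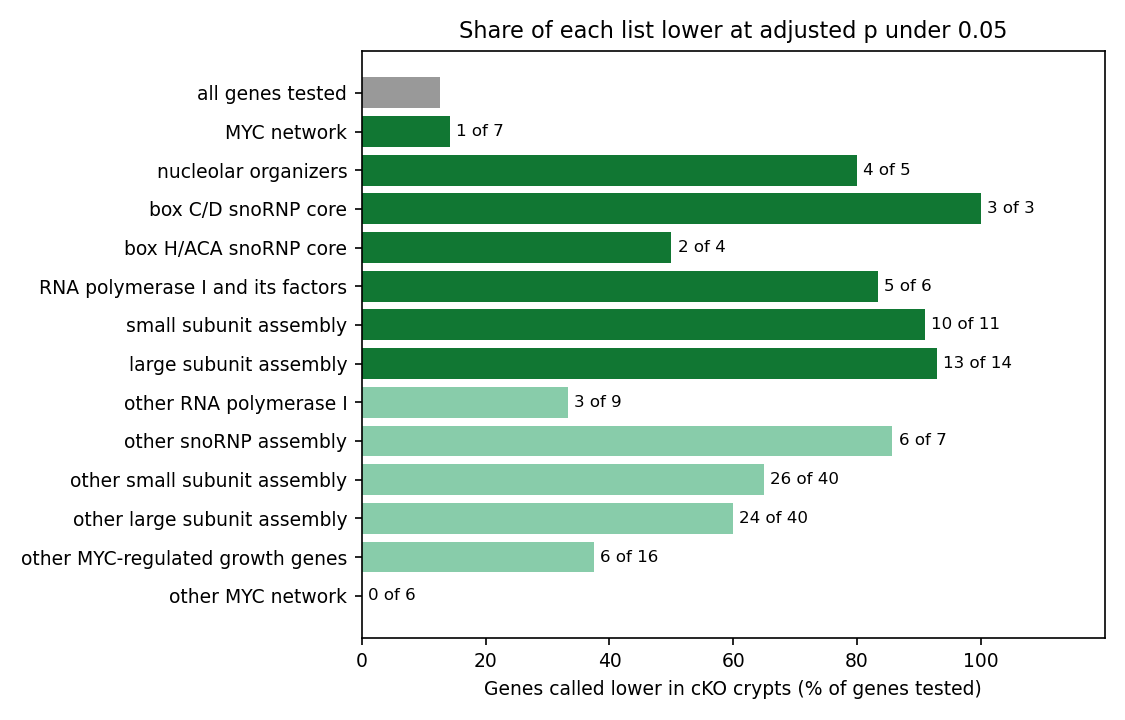
Percent of the genes tested in each list that were lower in cKO crypts at an adjusted p under 0.05 from edgeR (x axis), for all genes tested (grey, 12.7%), the 7 role groups of the 50 members (dark green) and further genes of the same processes (light green). Numbers beside the bars give the genes lower and the genes tested.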

How the data were processed

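Polyadenylated RNA of jejunal crypts was sequenced from 10 mice, 5 per genotype, and each animal is a replicate. The authors processed the reads with nf-core/rnaseq 3.0, in which STAR and RSEM quantified them against Ensembl release 95 of GRCm38. They deposited for each gene and library an expected count, which need not be whole because RSEM divides reads that match several genes, a TPM and an FPKM. The expected count was not normalized between libraries by the authors, and the deposited TPM sums to 1000000 per library. The deposited FPKM was not used here. The strand setting is not given in the sources used here, so overlapping genes on opposite strands could share counts.

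Identifiers were matched to symbols, which 54723 of 54838 genes had. Genes without a symbol took about 0.02% of the counts. Rounded expected counts entered edgeR 4.0.16 under R 4.3.3, with filterByExpr by genotype (minimum count 10, minimum total count 15), TMM factors (1.00 to 1.08 in WT and 0.934 to 0.986 in cKO libraries), and the robust quasi-likelihood test of genotype with Benjamini-Hochberg adjustment over all genes tested and a threshold of 0.05. Genotype was the only term, because all animals belong to 1 time point. Log2 fold changes are cKO over WT with the standard error of this fit. Counting error is small at these depths except for Mycn and for Arid3a, which had only 9 to 81 counts per library. TPM was tested as log2(TPM + 0.5) with limma 3.58.1, a scale that understates changes of low genes. Copies of members were sought with BLAST 2.17.0 among GENCODE transcripts of GRCm38, at 95% identity over at least 80% of the copy. Promoter windows were those of RefSeq.

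Other settings comprised no filter, library size only, RLE factors, DESeq2 1.42.0, TPM, the replicate number as a block, and leaving out animals. Leaving out WT replicates 3 and 4, or 3, 4 and 5, was added after the libraries had been seen. The script of the test was tested on simulated data. All 50 members are named, and of the further pathway genes the 3 with the smallest p among those past the threshold. No threshold on measured values entered the list of members, but members and lists were chosen with earlier results of these data known.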

Additional observations from a re-analysis of the deposited data

Results flagged for a closer look

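The 50 members in 2 genotypes gave 100 groups of 5 animals, and in 3 of them the highest or lowest animal stood apart from the other 4 by Dixon's test. Chance flags about 1 in 20 groups, which would be 5 of 100. Gar1 was 48.9 CPM in WT replicate 5 and between 34.99 and 38.4 CPM in the other WT animals. Polr1c was 58.0 CPM in the same animal and between 46.4 and 49.0 CPM in the others, and neither gene passed the test between genotypes. Rrn3 was 45.8 CPM in cKO replicate 4 and between 50.9 and 52.8 CPM in the other cKO animals, and without that animal its call was lost.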

How the results depend on the processing

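The direction of the log2 fold change was kept in every setting by 49 of the 50 members. The exception was Mycn, whose values without 1 animal ran from −0.0989 to 0.0552, above 0 without WT replicate 1 (0.0552) and without cKO replicate 1 (0.0373). Of the 38 members that were lower, 28 passed in all 10 fits that left out 1 animal, and the 3 that were higher passed in all 10. With DESeq2, RLE factors and library size only, the same 38 were lower, and with no filter or TPM 37 of them were. In all, 45 members were lower with library size only and 43 on TPM, where Mycl, Npm1, Gar1, Nop10, Polr1c and Nop16 passed as well, and Utp14a did with library size only. Library size only moved the median log2 fold change of all genes to −0.16 and TPM to −0.12, and members remained well below both, at medians of −0.55 and −0.48 for the 43 ribosome biogenesis genes.

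Over all genes, 2298 were higher and 1869 lower. The number higher was 1401 on TPM, 1472 without WT replicates 3 and 4 and 534 without WT replicates 3, 4 and 5. The number lower was 4030 with library size only, 671 without WT replicates 3 and 4 and 149 without WT replicates 3, 4 and 5. Leaving out 1 animal gave 1760 to 2572 higher and 1131 to 2112 lower, the fewest higher without cKO replicate 5 and the fewest lower without WT replicate 4. Members lower numbered 33 to 40 without 1 animal, 24 without WT replicates 3 and 4, and 3 without WT replicates 3, 4 and 5, when 1 was higher and the median of the ribosome biogenesis genes was −0.20. Of the further pathway genes, 98 were lower with library size only, 43 to 76 without 1 animal (43 without WT replicate 4), 23 without WT replicates 3 and 4 and 1 without WT replicates 3, 4 and 5. Between 0 and 2 of them were higher without 1 animal, 2 of them without WT replicate 2. With library size only, 1 goblet and 1 myeloid marker were lower, 0 enteroendocrine markers were higher by edgeR against 3, and 1 tuft marker was against 4. Apart from the fewer animals in a fit, the causes were not tested.

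Replicate numbers did not pair the animals. The correlations of same-numbered deviations lay between −0.157 and 0.131, and 0 of the 5 WT libraries correlated best with their own number. With the replicate block, 1191 genes and 40 of the further pathway genes were lower, and 31 of the 38 members. Among the members, depth limits Mycn most, at 93 to 154 counts per library.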
